A study of Mus musculus with 4 samples.

Results

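Foxo1, Sesn1 and Ddit4 were followed across 4 Affymetrix arrays of mouse T cells, through every probe set that carries 1 of these symbols or a synonym in the authors' tables of changed genes. The rule gave 9 probe sets, 4 for Foxo1, 4 for Sesn1 and 1 for Ddit4, which are 3 of the 507 genes with a symbol in those tables. The series looks for targets of the transcription factor Foxo1. The mice were 6 to 8 weeks old, and RNA came from CD4 T cells and CD8 T cells of their lymph nodes and spleen, labelled either wild-type or Foxo1-deficient (titled Foxo1KO). Each genotype was measured in each cell type, and each of these 4 groups had 1 array, so no value has a replicate and no genotype difference within a cell type carries a p-value. How Foxo1 was removed, in which cells or at what stage, the strain, and how many mice gave each RNA are not given in the sources used here.

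Foxo1 is a forkhead transcription factor that acts downstream of PI3K and AKT: AKT phosphorylates it and it then leaves the nucleus. In resting T cells it is known to sustain genes of quiescence and homing, among them Il7r. Sesn1 encodes sestrin 1, a stress-induced protein that was found as a p53 target, has been reported as a FOXO target, and restrains the growth kinase complex mTORC1 in answer to amino acid shortage and oxidative stress. Ddit4 encodes REDD1, induced by hypoxia, DNA damage, energy stress and glucocorticoids, which restrains mTORC1 through the TSC1-TSC2 complex. Both genes thus encode brakes on the same kinase complex.

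Intensities are the authors' deposited linear values for each probe set, and a level is compared only with the level of the same probe set on another array. The median of all intensities, 74.9, served as a floor: a value under it counts as unmeasured, and a difference against it is a bound. Array medians lay between 69.0 and 77.6, the log2 intensities of the arrays correlated across probe sets at r = 0.93 to 0.94, and the added hybridisation controls differed between genotypes by a median of -0.23 log2 units in CD4 and -0.01 in CD8. As a yardstick, probe sets of the same named gene differed in their log2 difference by a pooled SD of 0.39 (CD4 genotype comparison, 76 genes), 0.38 (CD8, 76 genes), 0.33 (wild-type CD8 against CD4, 78 genes) and 0.38 (Foxo1-deficient CD8 against CD4, 81 genes). This yardstick compares probe sets on the same pair of arrays, among genes listed for a change. It holds no variation between arrays or mice, so a gap beyond it is not thereby shown to be real. None of the fixed markers of T cells, of the CD4 lineage or of the CD8 lineage has a symbol in the tables, so the labelled cell types were not checked here.

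Foxo1 lies at chr3:52268337-52350109 in GRCm38.p6 and was lower on both deficient arrays at all 4 of its named probe sets. Probe set 1416983_s_at read 8204 (wild-type) and 1107 (deficient) in CD4 T cells and 6902 (wild-type) and 1836 (deficient) in CD8 T cells. Probe set 1416981_at read 6494, 319, 5169 and 934 in the same order. Both put the 2 wild-type arrays at a near-equal high level and the 2 deficient arrays well below, with the CD4 one lowest. Probe set 1416982_at read 3897, 215, 3712 and 645. The dimmest, 1459170_at, read 606, 61.3, 389 and 45.1, and its deficient values lie under the floor, so they have no order between them. The direction was thus the same at every named probe set, including the dimmest. Probe sets carry a symbol only where the authors listed them for a change of at least 2-fold. An unchanged probe set of the gene would not be seen here, so this agreement is not independent evidence.

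**Figure D1:**
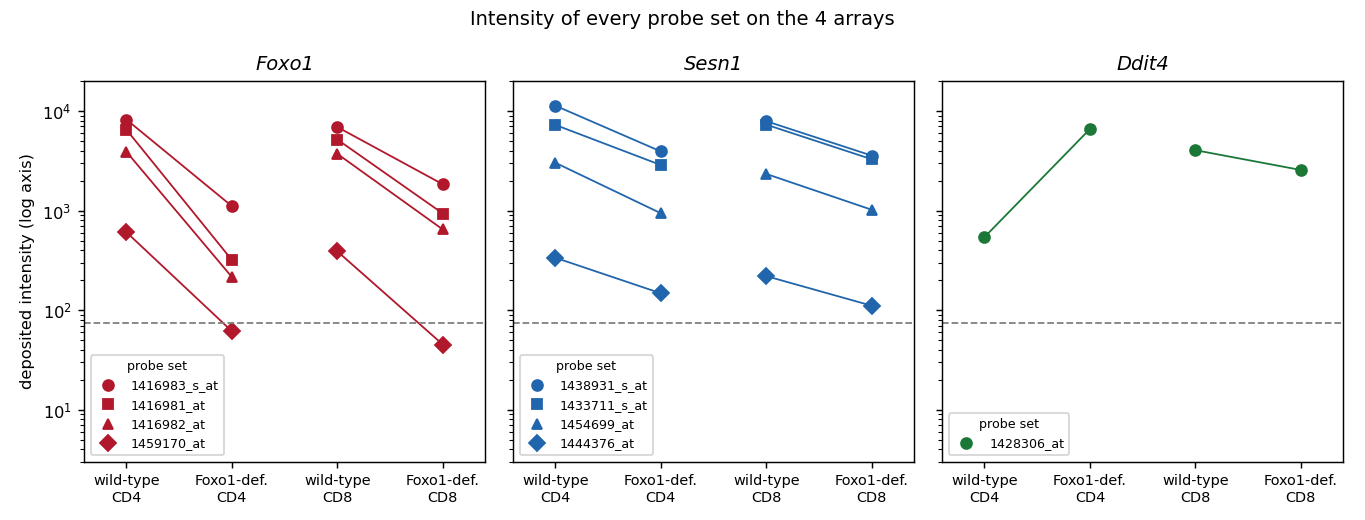
Deposited intensity (log axis) of each Foxo1, Sesn1 and Ddit4 probe set on the 4 arrays, with lines joining wild-type and Foxo1-deficient cells of a cell type and the dashed line at the floor of 74.9. All Foxo1 and Sesn1 lines slope down in both cell types, while the Ddit4 line climbs from 541 to 6595 in CD4 and goes from 4040 to 2555 in CD8.

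The loss of Foxo1 signal was larger in CD4 than in CD8 at the 3 probe sets above the floor on all arrays. The log2 difference, Foxo1-deficient minus wild-type, was -3.61 ± 0.76 in CD4 (mean ± SD, n = 4 probe sets on the same pair of arrays, values under the floor set to it) and -2.32 ± 0.28 in CD8. In CD4 the 4 probe sets were 7.41-fold, 20.4-fold, 18.1-fold and at least 8.10-fold lower, and in CD8 3.76-fold, 5.53-fold, 5.75-fold and at least 5.20-fold lower. Probe sets of the gene therefore disagreed on the size by over 1.5-fold in each cell type. In CD4, 1416981_at and 1416982_at held the 2 lowest log2 differences among 24070 probe sets compared, of which 1.26% were at least 2-fold lower. In CD8 the 4 probe sets stood between ranks 23 and 73 of 23803, where 2.04% were at least 2-fold lower. Foxo1 was the gene removed, so these ranks check the labels and are not a finding, and a probe set outside the deleted part, whose position is unknown here, would check nothing.

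Among the deficient arrays, the 3 measurable Foxo1 probe sets read higher in CD8 than in CD4, by log2 differences of 0.73 (1416983_s_at), 1.55 (1416981_at) and 1.59 (1416982_at). At least 2-fold higher in this comparison were 1.92% of 23637. Among the wild-type arrays all 4 probe sets read lower in CD8, by 1.05-fold to 1.56-fold, and 3 of them differed by less than the largest yardstick of 0.39 log2 units. None of the 4 was 2-fold lower, as 2.31% of all probe sets were. The CD4 signal that was left came to 13.5%, 4.91% and 5.52% of wild-type, and the CD8 signal to 26.6%, 18.1% and 17.4%. In RNA from many cells, a smaller share of cells that kept Foxo1 and less Foxo1 RNA in each cell cannot be told apart. In the authors' deposited tables, whose intensities differ from the value table, the signal left for all 4 probe sets was 5.04% to 11.6% in CD4 and 17.7% to 19.8% in CD8.

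**Figure D2:**
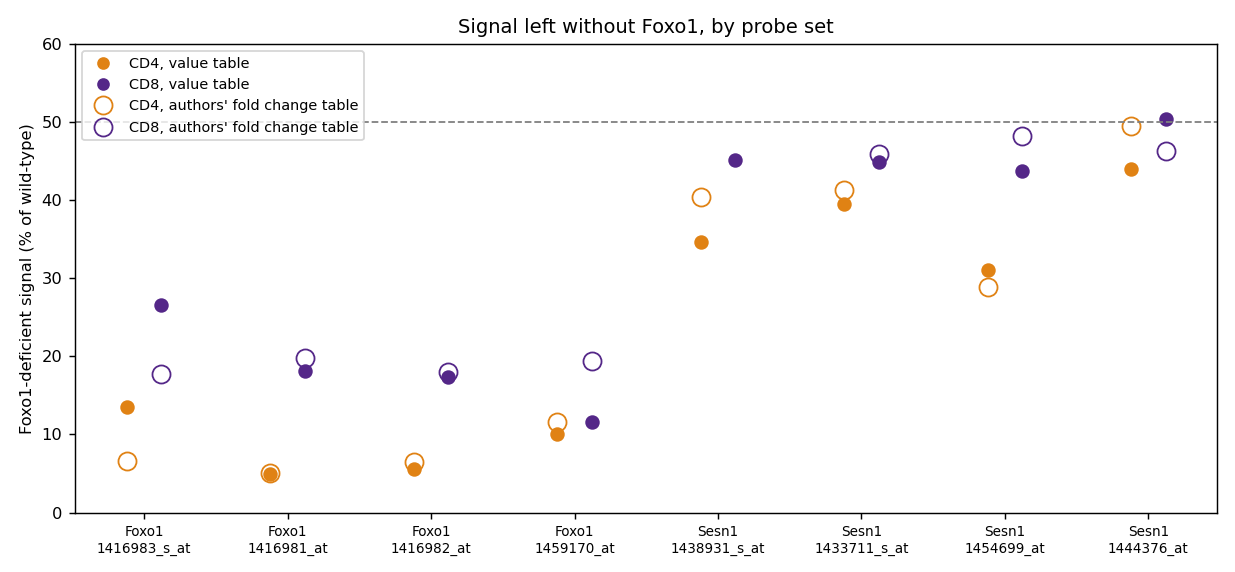
Foxo1-deficient signal as a percent of wild-type for each Foxo1 and Sesn1 probe set, in CD4 (orange) and CD8 (purple), from the value table (filled) and the authors' deposited tables (open), with the dashed line at 50%. Foxo1 keeps 4.91% to 26.6% and Sesn1 31.1% to 50.4% of its wild-type signal in the value table; for 1459170_at the filled points rest on deficient values under the floor.

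Sesn1 lies at chr10:41810574-41908436 and has 2 annotated start windows in the RefSeq promoter table, Ddit4 lies at chr10:59949675-59951770 on the minus strand and has 1, and Foxo1 has 1. The windows, 250 bases before and 50 bases after each start (RefSeq, GRCm38.p6), were searched on both strands for the forkhead site GTAAACA, the looser TGTTTNC, the hypoxia core ACGTG and the glucocorticoid receptor site (AGAACA, any 3 bases, TGTTCT). The Sesn1 window and the Ddit4 window that hold a match are shown because the probe sets of these 2 genes went opposite ways in CD4. They are the Sesn1 window chr10:41810324-41810623 (plus strand), with the forkhead match in capitals, and the Ddit4 window chr10:59951721-59952020 (minus strand), with the hypoxia core in capitals, both written 5′ to 3′ along the gene.
Sesn1: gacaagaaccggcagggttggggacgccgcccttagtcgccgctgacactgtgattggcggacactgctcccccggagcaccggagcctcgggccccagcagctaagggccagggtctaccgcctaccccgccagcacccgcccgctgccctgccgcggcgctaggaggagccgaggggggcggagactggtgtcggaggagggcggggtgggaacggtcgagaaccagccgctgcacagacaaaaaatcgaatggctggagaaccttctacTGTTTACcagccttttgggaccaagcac
Ddit4: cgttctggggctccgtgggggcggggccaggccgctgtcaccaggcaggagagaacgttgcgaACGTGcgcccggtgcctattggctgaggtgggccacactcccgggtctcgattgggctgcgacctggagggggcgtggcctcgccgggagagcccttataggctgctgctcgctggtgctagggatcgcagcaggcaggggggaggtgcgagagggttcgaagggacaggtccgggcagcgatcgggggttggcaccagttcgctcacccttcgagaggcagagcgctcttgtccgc
The forkhead match in the Sesn1 window begins 23 bases into the transcript, counting the start site as base 1, at chr10:41810596-41810602, and the same 7 bases also match the looser site. Of all 32851 windows of this length, 3.65% hold GTAAACA on either strand and 20.5% hold TGTTTNC. The ACGTG of the Ddit4 window begins 187 bases before the start site, and 19.6% of all windows hold it. Neither forkhead form is in the Ddit4 window, the Foxo1 window or the other Sesn1 window, and the glucocorticoid receptor site is in none of the 4 and in 3 of all windows. A match describes letters and is no measure of binding.

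Sesn1 was lower without Foxo1 in both cell types, at every named probe set. An unchanged probe set of the gene would carry no symbol and would not be seen here. Probe set 1438931_s_at read 11301 (wild-type) and 3920 (deficient) in CD4 T cells and 7897 (wild-type) and 3561 (deficient) in CD8 T cells. Probe set 1433711_s_at read 7243, 2865, 7287 and 3273 in the same order. Each shows both wild-type arrays above both deficient arrays. Probe set 1454699_at read 3019, 939, 2330 and 1018, and the dimmest, 1444376_at, read 336, 147, 219 and 111. All 16 Sesn1 values were above the floor, and the lowest wild-type value exceeded the highest deficient value at each of the 4 probe sets. The 2 probe sets marked _s_at are of the kind that can match more than 1 transcript.

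The mean log2 difference of Sesn1 was -1.43 ± 0.22 in CD4 (SD, n = 4 probe sets on the same pair of arrays) and -1.12 ± 0.09 in CD8. In CD4 the probe sets were 2.88-fold, 2.53-fold, 3.22-fold and 2.28-fold lower, and all 4 passed 2-fold, against 1.26% of all probe sets compared. In CD8 they were 2.22-fold, 2.23-fold, 2.29-fold and 1.98-fold lower, and 3 of 4 passed 2-fold, against 2.04%. Sesn1 carries a symbol because the authors listed it for such a change, so these counts are not independent evidence. The middle 95% of all log2 differences ran from -0.79 to 0.86 in CD4 and from -0.93 to 0.83 in CD8, and all 8 Sesn1 differences lay below it. A drop of at least 2-fold in both cell types was seen at 3 of the 4 Sesn1 probe sets and at 0.462% of the 22498 measurable in both. The CD8 counts depended on scaling: the deficient CD8 array has a median 0.16 log2 units under the wild-type one, and when every array was centred on its median the CD8 differences were -1.04 to -0.83, with 1 of 4 past 2-fold.

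Sesn1 kept more of its signal than Foxo1 did, and the difference between cell types was smaller. In CD4 34.7%, 39.5%, 31.1% and 43.9% of the wild-type signal was left, and in CD8 45.1%, 44.9%, 43.7% and 50.4%. The CD8 minus CD4 difference of the genotype effect was 0.31 ± 0.15 log2 units for Sesn1 (SD over 4 probe sets) and 1.18 ± 0.76 for Foxo1 (no floor applied), above 0 at 4 of 4 probe sets of each gene, of which the dimmest for Foxo1 rests on values under the floor. With 1 array per group a difference between the cell types' effects has no test. Between 9.94% and 29.3% of the 22498 probe sets had a difference at least as large in that direction as the Sesn1 probe sets.

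In the order of Sesn1 levels, the 2 deficient arrays came lowest at each probe set. Their gaps of 0.12 to 0.19 log2 units at 1438931_s_at, 1433711_s_at and 1454699_at are under the yardstick of 0.39, so no order of CD4 and CD8 is read there. At 1444376_at the gap was 0.41, and with 1 array per group no order is read there either. The wild-type CD4 array was highest at 3 probe sets, by 1.30-fold to 1.53-fold over wild-type CD8, while 1433711_s_at read 7243 and 7287. The authors' deposited tables list Sesn1 as 2.02-fold to 3.46-fold lower in CD4 at 4 probe sets and 2.07-fold to 2.18-fold lower in CD8 at 3. The brightest probe set, 1438931_s_at, is not in their CD8 table.

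Ddit4 differed between the cell types in the direction of its genotype difference. Its single named probe set, 1428306_at, read 541 (wild-type) and 6595 (deficient) in CD4 T cells and 4040 (wild-type) and 2555 (deficient) in CD8 T cells. The wild-type CD4 array stood apart, 4.72-fold under the next lowest array, and the other 3 spanned 2.58-fold. Ddit4 was thus 12.2-fold higher without Foxo1 in CD4 (log2 difference 3.61) and 1.58-fold lower in CD8 (log2 difference -0.66). In CD4 this was rank 11 from the top among 24070 differences, where 1.5% were at least 2-fold higher. Ddit4 carries a symbol because the authors listed it for its rise in CD4, so this rank is not independent evidence. In CD8, 6.09% of probe sets had a difference at least as low, and -0.66 lies inside the middle 95% of all differences.

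**Figure D3:**
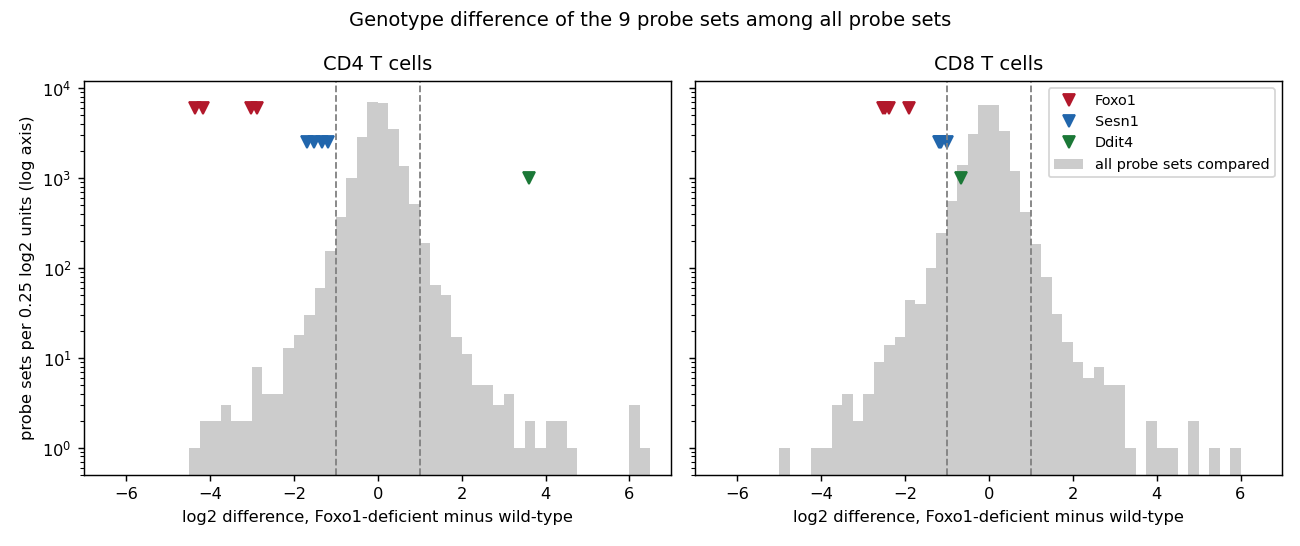
Histograms (log count axis) of the log2 difference, Foxo1-deficient minus wild-type, over all probe sets compared in CD4 (left, 24070) and CD8 (right, 23803), with triangles for the Foxo1, Sesn1 and Ddit4 probe sets at arbitrary heights and dashed lines at 2-fold. Foxo1 and Sesn1 lie in the lower tail on both sides, and Ddit4 lies at 3.61 in CD4 and at -0.66 in CD8.

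The CD8 minus CD4 difference of the Ddit4 effect was -4.27 log2 units, the third lowest of 22498, and was not tested. This place and the shares below rest on the CD4 rise for which the gene was listed, and are descriptions only. Higher by at least 2-fold in CD4 and lower by any amount in CD8 were 0.431% of these probe sets. Seen by genotype, wild-type CD8 exceeded wild-type CD4 by 7.47-fold for Ddit4, against 2.2% of 24371 with a rise of 2-fold or more, and deficient CD8 was 2.58-fold below deficient CD4, where 2.94% of 23637 were at least 2-fold lower. These comparisons share arrays with the genotype ones, so they restate the same 4 values. The low wild-type CD4 value enters both the CD4 genotype difference and the wild-type cell type difference, and no second array of that group exists here to set beside it. Over 25375 probe sets, 0.217% had wild-type CD4 as the lowest array by at least 2-fold, and the corresponding shares for the other 3 arrays were 0.181%, 0.158% and 0.363%. The authors' deposited CD4 table gives Ddit4 as 7.89-fold higher, from 798 to 6292, and their CD8 table does not list it. The direction of both Ddit4 differences held with median-centred and quantile-normalized arrays (3.64 and 3.68 in CD4, -0.50 and -0.66 in CD8).

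A two-sided limma fit over 25375 probe sets, additive in genotype and cell type, asked for a genotype difference shared by both cell types. For Foxo1 the fitted log2 difference ran from -3.41 ± 0.56 (SE, 4 arrays) at 1416981_at to -2.40 ± 0.32 at 1416983_s_at. For Sesn1 it ran from -1.44 ± 0.20 at 1454699_at to -1.09 ± 0.16 at 1444376_at. Ddit4 had a fitted difference of 1.47 ± 1.24, whose error holds the opposite effects in the 2 cell types. The Benjamini-Hochberg adjusted p in limma's moderated test was 0.414 to 0.468 for the Foxo1 and Sesn1 probe sets and 0.736 for Ddit4. No probe set passed an adjusted p of 0.05 (0% called), against 2385 at an unadjusted p under 0.05. With limma's mean-dependent and robust prior, which called 1.95% of all probe sets, 2 of 4 Foxo1 probe sets passed (1416983_s_at with adjusted p = 0.0289 and 1459170_at with 0.000388). So did 3 of 4 Sesn1 probe sets (adjusted p = 0.000437 to 0.00173), while 1444376_at had 0.0687 and Ddit4 0.863. No floor was applied in the fit, and both deficient values of 1459170_at lie under it. The 2 Foxo1 probe sets with the largest fitted drops, 1416981_at and 1416982_at, did not pass. With 1 residual degree of freedom, neither fit measures the spread between mice. The probe sets of these genes carry a symbol because the authors listed them for a change of at least 2-fold on these arrays. Their passes are therefore not independent evidence, and an unchanged probe set of a gene would not be seen.

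Other genes of the pathway could be followed only where the authors' tables name them, and each was listed there for a change of at least 2-fold in 1 or both cell types. Foxo1 was the only member of the FOXO family with a symbol (1 of 4), and Sesn1 and Ddit4 were the only sestrin and REDD genes (2 of 5). Of 47 genes of the mTORC1 pathway 1 was named, Rragd, which encodes a Rag GTPase that brings mTORC1 to the lysosome. Rragd read 146 (wild-type) and 788 (deficient) in CD4 T cells and 247 (wild-type) and 823 (deficient) in CD8 T cells. It was thus 5.41-fold higher in CD4 and 3.32-fold higher in CD8 without Foxo1.

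Inpp4b and Pik3cd belong to PI3K and AKT signalling, upstream of Foxo1. Inpp4b, a phosphatase acting on a lipid product of PI3K signalling, read 8468 (wild-type CD4), 3634 (deficient CD4), 5346 (wild-type CD8) and 2611 (deficient CD8), which is 2.33-fold lower in CD4 and 2.05-fold lower in CD8. Its second probe set had log2 differences of -0.61 and -1.91. Pik3cd, the catalytic PI3K subunit of leukocytes, was 3.11-fold lower in CD8 (1840 against 591), and 607 and 623 in CD4.

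Of 36 other reported FOXO targets 7 were named. In CD4, 4 of 7 passed 2-fold upwards and 1 downwards, and in CD8 2 of 6 upwards and 1 downwards. Over all probe sets compared, 1.5% were at least 2-fold higher and 1.26% lower in CD4, and 1.47% higher and 2.04% lower in CD8. The named targets were listed by the authors for such a change, so nothing is read from the counts. Il7r, the IL-7 receptor alpha chain, was the 1 lower gene in both, by 3.81-fold in CD4 (15808 to 4148) and 5.72-fold in CD8 (15760 to 2755). Bcl2l11, the gene of the BH3-only cell death protein Bim, read 81.9, 252, 293 and 233, in the same order of arrays, that is, without Foxo1, 3.08-fold higher (CD4) and 1.25-fold lower (CD8). Bcl6, a transcriptional repressor of follicular helper cells, was 2.15-fold and 2.14-fold higher. Tbx21, the gene of T-bet, was 7.83-fold higher in CD8 and at least 1.47-fold higher in CD4. The other genes past 2-fold upwards in CD4, Socs3 (2.11-fold) and Foxp3 (at least 2.03-fold), and the seventh target, Eomes (1.57-fold higher in CD4 and 1.62-fold higher in CD8), are named here after their values were seen. The list's median was 1.02 in CD4 (7 genes) and 0.80 in CD8 (6 genes), beside 0.32 and 0.16 over all named genes. These medians also come from genes listed for a change, and nothing is read from them.

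**Figure D4:**
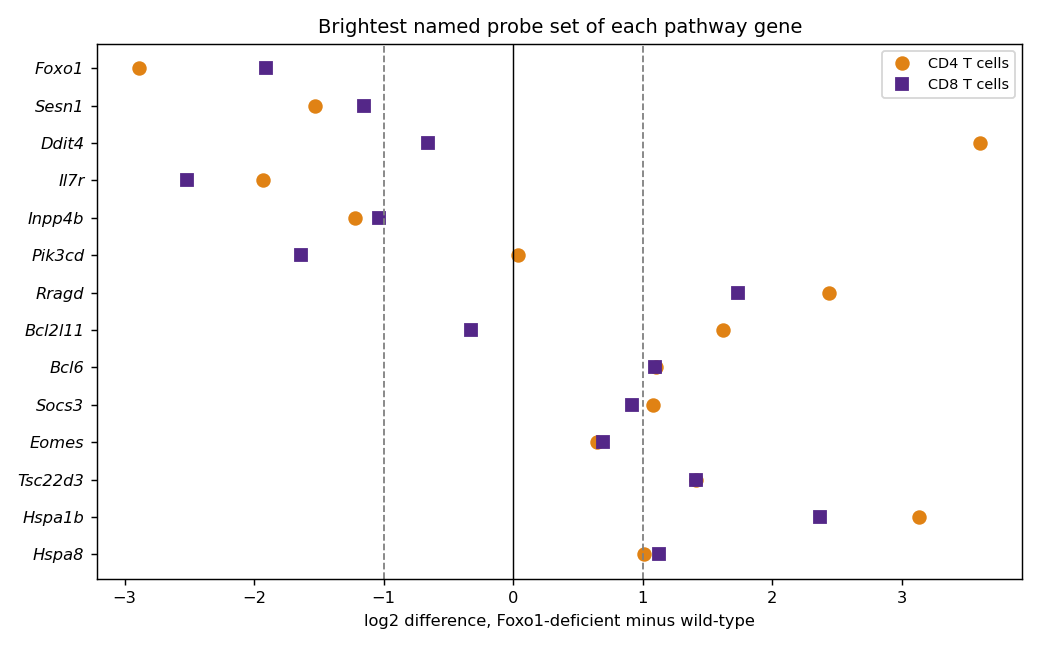
Log2 difference, Foxo1-deficient minus wild-type, of the brightest named probe set of Foxo1, Sesn1, Ddit4 and pathway and stress genes that were above the floor on all 4 arrays, in CD4 (circles) and CD8 (squares), with dashed lines at 2-fold. Ddit4 at 3.61 and -0.66 has the widest gap between the cell types of the genes drawn. Bcl2l11 at 1.62 and -0.33 and Pik3cd at 0.04 and -1.64 also lie on both sides of 0.

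Stress genes were named in small numbers. Of 19 p53 targets 3 were named, Sesn1, Bcl6 and Pmaip1, and Pmaip1, which encodes the pro-apoptotic protein Noxa, was 1.84-fold higher in CD8 and under the floor in both CD4 arrays. Of 30 genes of the integrated stress, hypoxia and glucocorticoid responses 1 was named. This gene, Tsc22d3, encodes the glucocorticoid-induced protein GILZ and read 605, 1611, 772 and 2053, 2.66-fold higher without Foxo1 in each cell type. Unlike Ddit4, it was thus near one level on the 2 wild-type arrays. Of 16 heat shock and dissociation genes 3 were named. The values of Hspa1b, an inducible chaperone of the heat shock response, were 8.78-fold (CD4) and 5.17-fold (CD8) higher, and those of Hspa8, its constitutive relative, 2.01-fold and 2.19-fold. Jun was 1.90-fold higher in CD8 and under the floor in both CD4 arrays.

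Among named genes, likeness to each member was taken as the root-mean-square distance of log2 intensities, centred on their mean over the 4 arrays, for 360 other genes above the floor on all arrays. Closest to Sesn1 were Dck, the deoxycytidine kinase gene (distance 0.07 log2 units), 5530400N10Rik (0.13) and Gpd2, the mitochondrial glycerol phosphate dehydrogenase gene (0.15). Dck read 7121, 2441, 5260 and 2495. Closest to Foxo1 were the receptor gene Slamf6 (0.24), the integrin gene Itga4 (0.30) and the nucleoside transporter gene Slc28a2 (0.39). Ddit4 had no close match: Bcl2l11 (0.71) and Frmd4b (0.74) came nearest, and no other of 19940 probe sets above the floor on all 4 arrays, named or not, came nearer than Frmd4b. In the same wider search, 1 further named probe set and none of Foxo1's own other probe sets came nearer to Foxo1 than Slc28a2. For Sesn1, 1 of its own other probe sets and 2 unnamed ones came nearer than Gpd2. The matches thus belong to the brightest probe set of each gene. With 4 arrays and genes listed for a change, such distances describe a shape only.

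**Figure D5:**
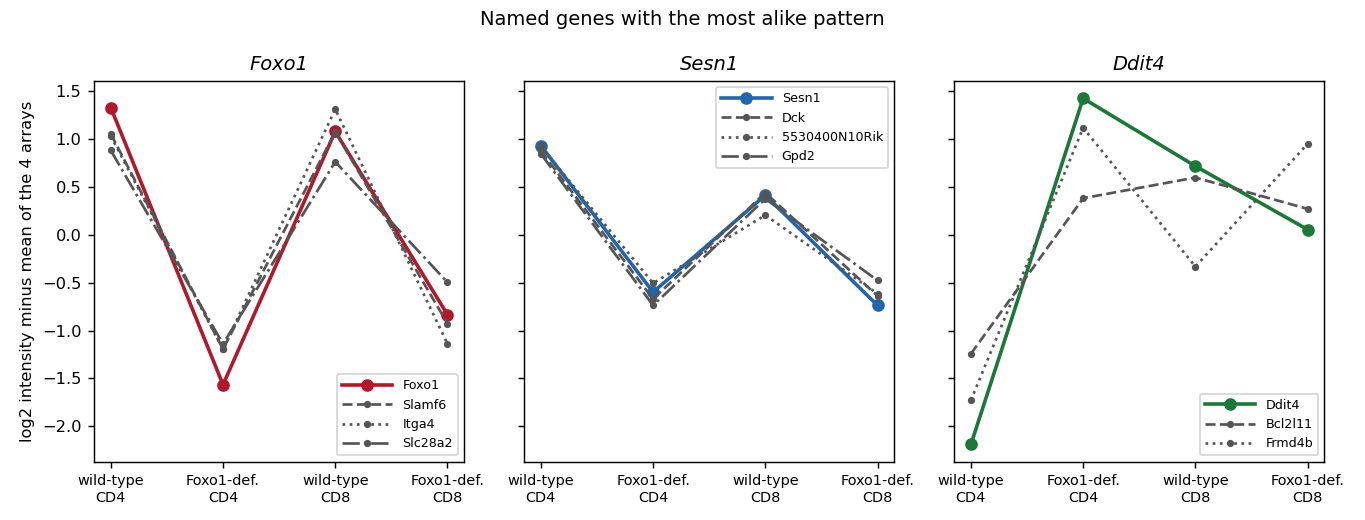
Log2 intensity minus the mean of the 4 arrays for the brightest probe set of Foxo1, Sesn1 and Ddit4 (coloured) and the named genes nearest to each (grey), 3 for Foxo1, 3 for Sesn1 and 2 for Ddit4. The grey lines follow Sesn1 within distances of 0.07 to 0.15 log2 units, while those beside Ddit4 share its low wild-type CD4 value at distances of 0.71 and 0.74.

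Markers of other cells also differed between genotypes, and their part in the differences above was not tested. Of 8 B cell markers 3 were named, Igkc, Ighm and H2-Aa, with summed intensities of 1105 (wild-type) and 2422 (deficient) in CD4 and of 676 (wild-type) and 2968 (deficient) in CD8. The CD4 rise was mostly Igkc (257 to 1157), as Ighm was at least 1.43-fold and H2-Aa 1.47-fold higher. In CD8 Igkc was 9.35-fold, Ighm at least 4.19-fold and H2-Aa 2.30-fold higher. The plasma cell gene Jchain (1 of 4) read 91.0, 335, 85.1 and 560. Of 4 gamma delta T cell markers 2 were named, Cd163l1 and Trgv1, with sums of 139, 2775, 88.5 and 1338. The NK markers Klrd1 and Nkg7 (2 of 4) summed to 1391, 291, 22676 and 12794. In CD4 they went opposite ways, Klrd1 13.8-fold lower and Nkg7 at least 2.61-fold higher without Foxo1. The lower sum in deficient CD8 came from Klrd1 alone, which was 4.44-fold lower (12752 to 2875). Nkg7 read 9924 (wild-type) and 9920 (deficient) in CD8. The myeloid gene Lyz2 (1 of 6) read 152, 165, 46.6 and 138, and the erythroid gene Hba-a1 (1 of 4) read 152, 68.6, 120 and 51.2. Of these values 46.6, 68.6 and 51.2 lie under the floor and count as unmeasured. No dendritic cell marker was named. For Jchain and for the B cell and gamma delta sums, both deficient arrays were above both wild-type arrays. The gamma delta sum was mostly Cd163l1 in CD4: Trgv1 read 8.97, 29.5, 31.9 and 728 in the same order of arrays. Of these Trgv1 values 3 lie under the floor and count as unmeasured, among them 8.97, the lowest of all these marker values. The sums also hold other values under the floor. These are Ighm in wild-type CD4 (56.9) and wild-type CD8 (44.3), Cd163l1 in wild-type CD8 (56.5) and Nkg7 in wild-type CD4 (64.1).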

How the data were processed

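Per the labels' protocols, total RNA of 1 sample per group was turned into biotin-labelled cRNA for Affymetrix arrays. The authors deposited 1 linear intensity per probe set and array. Their summarisation, background correction and scaling are not given in the sources used here. They also deposited, for each cell type, a table of changed probe sets holding a fold change (deficient over wild-type), the raw intensities behind it, per the file headers, and a symbol. In these tables the header names stand 1 column to the left of their values, and each ratio equals the quotient of its intensities within a relative 1e-06.

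Of 45101 probe sets 64 controls were left out. Symbols were held by 660 probe sets (1.47% of 45037), with 56 updated through a synonym in the RefSeq list of GRCm38.p6. Every ratio the authors listed is at least 2-fold. Values under the floor were set to it, and a probe set under it in both arrays was left out. The brightest probe set stood for a gene in lists. Members, lists and rules were chosen with earlier results of these data known. Named are all probe sets of the 3 genes, list members (up to 5 named ones in full, of longer lists the 4 that differ most by genotype) and the 3 genes most like each member. One item that these rules name is not reported here, nor are the list counts and medians that include it. The fit used limma 3.58.1 in R 4.3.3 on log2 values without a floor, for probe sets reaching it on 1 array or more, and was tested on simulated data. The rest was done in Python 3.11.15 (pandas 2.3.3, numpy 2.4.6, matplotlib 3.10.9). The number of arrays limits the precision. Alternatives were other floors, scalings, pseudocounts, probe set rules, thresholds, filters and priors.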

Additional observations from a re-analysis of the deposited data

Results flagged for a closer look

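Ddit4 had genotype differences of opposite sign in the 2 cell types: a log2 difference, Foxo1-deficient minus wild-type, of 3.61 in CD4 and of -0.66 in CD8. The CD8 value lies inside the middle 95% of all differences (-0.93 to 0.83), and 6.09% of probe sets were at least as low. Each rests on 1 array per group and 1 probe set, and the difference between the cell types was not tested.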

How the results depend on the processing

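No Foxo1, Sesn1 or Ddit4 difference changed sign under the alternatives run, except Sesn1 in deficient CD8 against CD4 (-0.14, and 0.12 without probe sets shared between transcripts), which is inside the spread between probe sets. Beyond the spread between probe sets moved Foxo1 in CD4, from -2.89 for its brightest probe set to -3.61 as the mean of its probe sets, -4.35 without probe sets shared between transcripts and -3.93 in the authors' deposited table, and Foxo1 in CD8, from -1.91 to -2.32, -2.47 and -2.50. Foxo1 in deficient CD8 against CD4 moved from 0.73 to 1.29 (mean) and 1.55 (unshared), and Ddit4 in CD4 from 3.61 to 2.98 in the authors' deposited table. The deposited CD8 table does not list Ddit4 or the brightest Sesn1 probe set. Counts of probe sets at least 2-fold different were 361 higher and 303 lower (CD4 genotype), 351 higher and 485 lower (CD8 genotype), 537 higher and 562 lower (wild-type cell type) and 455 higher and 696 lower (deficient cell type). With the floor at the 25th percentile they were 1860 higher and 2284 lower (CD4 genotype), 1630 higher and 3043 lower (CD8 genotype), 2492 higher and 2533 lower (wild-type cell type) and 1772 higher and 2738 lower (deficient cell type), and at the 75th percentile 85 higher and 94 lower (CD4 genotype), 92 higher and 125 lower (CD8 genotype), 164 higher and 109 lower (wild-type cell type) and 156 higher and 154 lower (deficient cell type). Without a floor they were 4358 higher and 5589 lower (CD4 genotype), 4072 higher and 6851 lower (CD8 genotype), 5438 higher and 5262 lower (wild-type cell type) and 4704 higher and 6038 lower (deficient cell type). At 1.5-fold they were 1588 higher and 1203 lower (CD4 genotype), 1427 higher and 1827 lower (CD8 genotype), 1876 higher and 2256 lower (wild-type cell type) and 1428 higher and 2522 lower (deficient cell type), and at 3-fold 84 higher and 78 lower (CD4 genotype), 73 higher and 127 lower (CD8 genotype), 160 higher and 113 lower (wild-type cell type) and 159 higher and 181 lower (deficient cell type). Median centring turned the balance in 3 of 4 comparisons, to 561 higher and 330 lower (CD8 genotype), 622 higher and 508 lower (deficient cell type) and 541 higher and 529 lower (wild-type cell type), and gave 400 higher and 266 lower in the CD4 genotype comparison. The shared effect had 0 calls in limma's moderated test, 2 when all 4 arrays had to reach the floor and 494 with the mean-dependent and robust prior. That prior put the brightest probe sets of Foxo1 (-2.40, adjusted p = 0.0289) and Sesn1 (-1.34, adjusted p = 0.00056) past the threshold. Over the other alternatives their adjusted p stayed above it. Both genes were listed by the authors for a change on these arrays, so these passes are not independent evidence. No analysis paired by mouse was possible, because each group has 1 array and the mice behind each RNA are not given. The additive fit did compare the genotypes within cell type. Signal near the floor limits 1459170_at of Foxo1.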
